A study of Mus musculus with 28 samples.

Results

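The genes described here are 38 mouse genes whose products load, dock, release and recycle synaptic vesicles, out of 45513 genes listed in each count table. They were chosen by name, as vesicle proteins, SNAREs and release factors, and all 38 were found in the tables under 1 Ensembl identifier each. The study asked which mRNAs change their ribosome occupancy when human TDP-43 (hTDP-43), an RNA-binding protein that aggregates in amyotrophic lateral sclerosis, is present in excess. From each culture, 1 library of ribosome footprints (mRNA fragments that ribosomes shield from RNase) and 1 library of fragmented poly(A)-selected total mRNA were sequenced. There were 28 libraries in all, from 6 cultures of MN1 cells and 8 of primary cortical neurons.

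MN1 is a clonal hybrid line of mouse spinal motor neurons and neuroblastoma. MN1 cells were transiently transfected with a plasmid for GFP, hTDP-43 or hTDP-43 A315T, an amino acid substitution linked to the disease, with 2 cultures for each, and were given cycloheximide at 100 µg/ml for 3 min before lysis. Neurons came from the cortex of C57BL/6J embryos at embryonic day 16, were cultured with Ara-C, a drug that limits dividing cells, and were lysed on day 14 in vitro without such a pretreatment. They were WT (non-transgenic littermates, 2 cultures), hTDP-43 (3 cultures) or hTDP-43 A315T (3 cultures). The transgenes were driven by the prion promoter, which is not restricted to a cell type, so glia in the dishes can carry them too. Cell type is therefore confounded with cycloheximide, the way hTDP-43 was supplied, and date, and these cannot be told apart.

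Synaptic vesicles are filled with transmitter by transporters in their membrane, held in reserve by synapsins, docked at the active zone by scaffolds and Rab3, and fused by a complex of SNARE proteins when a synaptotagmin binds calcium. The membrane is then retrieved by endocytosis and the SNAREs are pulled apart by NSF with its SNAP cofactors. Many of these genes carry sites for REST, a repressor that keeps neuronal genes low in cells that are not neurons, and cell lines of neuronal origin often express only some of them.

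The REST site, RE1, was searched for because all but a few of these genes were lower in MN1 cells. Its letters, CAGCACC and then GGACAGC with 2 bases of any kind between them, were looked for on both strands within 5000 bases either side of each gene start in GRCm38.p6. An exact match lay near 1 of the 38 members (2.63%), Snap25, and near 0.396% of 21488 protein-coding genes. With 1 letter allowed to differ, 4 members (10.5%) had a match (Rph3a, Snap25, Syp and Syt4), as had 1.96% of all protein-coding genes, 2.49% of the genes tested in total mRNA and 3 of 57 other vesicle cycle genes (5.26%). A match is a description of letters and not a bound site. Sites that differ in more letters were not counted, so a member without a match, such as Syn1, may still hold an RE1-like site. The windows below are printed in lower case with the letters that match the motif in capitals, all on the plus strand: Snap25 in an intron at chr2:136714333-136714362 and chr2:136714283-136714312, Syp in a coding exon at chrX:7638732-7638761, and Rph3a, a gene on the minus strand, at chr5:121009609-121009638, before its start in the deposited tables and in an intron of the GENCODE M21 annotation.
Snap25 exact: gacctttCAGCACCgcGGACAGCgatccgg
Snap25 with 1 letter different: gggagctCAGCACCctGGACAGgagtgctc
Syp: cgcgctcCAGCACCgtGGACAGagcccggc
Rph3a: tggcagtCAGtACCacGGACAGCaccagga

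Reads assigned to genes numbered 332370 to 1219222 per MN1 footprint library, 1328528 to 2988339 per MN1 total mRNA library, 166064 to 2528820 per neuron footprint library and 600385 to 6969578 per neuron total mRNA library. Levels are given as CPM, the count of a gene relative to all assigned reads of its library, after TMM scaling. Over the libraries, 3 counts correspond to 0.430 to 18.1 CPM before scaling, and lower levels could not be measured. Pan-neuronal markers summed to 505 to 639 CPM in MN1 and 4583 to 5679 CPM in neurons (total mRNA), and glutamatergic cortical markers to 15.7 to 25.3 and 1127 to 1669 CPM. Of 6 motor neuron and cholinergic markers, 3 (Chat and Slc5a7 among them) stayed under 10 counts in every MN1 library, while the list summed to 48.0 to 72.0 CPM there and 5.34 to 11.3 CPM in neurons. GABAergic markers reached 1379 to 2449 CPM in the neuron cultures, so these hold other cells than glutamatergic neurons. Astrocyte markers summed to 268 to 604 CPM there, with Slc1a2 the largest part. In total mRNA of hTDP-43 A315T replicate 1, Slc1a2 had 1678 counts, Slc1a3 246, Aldoc 152 and Gfap 11. Only 2 of the 8 astrocyte markers had 10 counts in every neuron total mRNA library, so the sum is a weak measure of astrocytes. In bulk libraries, fewer cells of a type and less RNA per cell cannot be told apart. The total mRNA library of WT replicate 3 stood apart, with 18.8% of its reads on Lars2 and the members' summed level at 14480 CPM, against 17002 to 19690 CPM in the other neuron total mRNA libraries. Reads on mouse Tardbp, which may include reads of the human transgene, were at 235 and 217 CPM in MN1 total mRNA of the GFP cultures, 419 and 317 CPM for hTDP-43 and 430 and 379 CPM for hTDP-43 A315T, and between 55.9 and 106 CPM in neurons, where the genotypes overlapped.

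Synaptic vesicle genes were far higher in cortical neurons than in MN1 cells. In total mRNA all 38 were tested, and 35 were higher in neurons, 2 (Vamp1 and Sv2c) were lower and 1 (Syt2) did not pass the test (edgeR quasi-likelihood, adjusted p below 0.05). The background is high, since 81.0% of 12801 genes tested were called, 42.6% upward and 38.4% downward. The members' median log2 fold change was 4.39, against 0.09 over all genes tested. In footprints, where 82.6% of 10698 genes were called (42.7% upward, 39.9% downward), 35 of 37 members tested were higher in neurons and 2 lower (Sv2c and Vamp1), with a median of 4.36 (0.05 over all genes). Together the 38 genes took 0.193 to 0.237% of reads in MN1 total mRNA and 1.04 to 1.75% in neuron total mRNA. In footprints their share was 0.151 to 0.188% in MN1 and 1.61 to 1.84% in neurons. The ranges of CPM in total mRNA did not overlap for 37 members, 35 with every neuron library above every MN1 library and 2 the other way round. Such a gap is common here, with 33.0% of the genes tested wholly above in neurons and 28.7% wholly above in MN1. In footprints 35 members lay wholly above in neurons (30.7% of the genes tested), 1 wholly above in MN1 (27.7%) and 2 overlapped.

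A low-count filter can favour genes that are high in only 1 of the groups, so members seen everywhere were counted apart. In total mRNA, 25 members had at least 10 counts in every library of both cell types, and 23 of these were higher in neurons and 2 lower, with a median log2 fold change of 3.18. Over the 5740 genes with that depth, 45.8% were higher and 32.9% lower, with a median of 0.23. In footprints there were 16 such members and all 16 were higher in neurons, with a median of 3.35, against 53.8% higher and 30.2% lower among 2160 genes. This set leaves out Sv2c and Vamp1, the 2 members lower in neuron footprints, which had 6 and 2 counts in neurons of hTDP-43 replicate 3. A cut on counts removes genes that are low in the shallow neuron libraries, so the lack of lower members among the 16 follows in part from the cut. Conversely, 10 members in total mRNA and 13 in footprints stayed under 10 counts in every MN1 library.

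**Figure D1:**
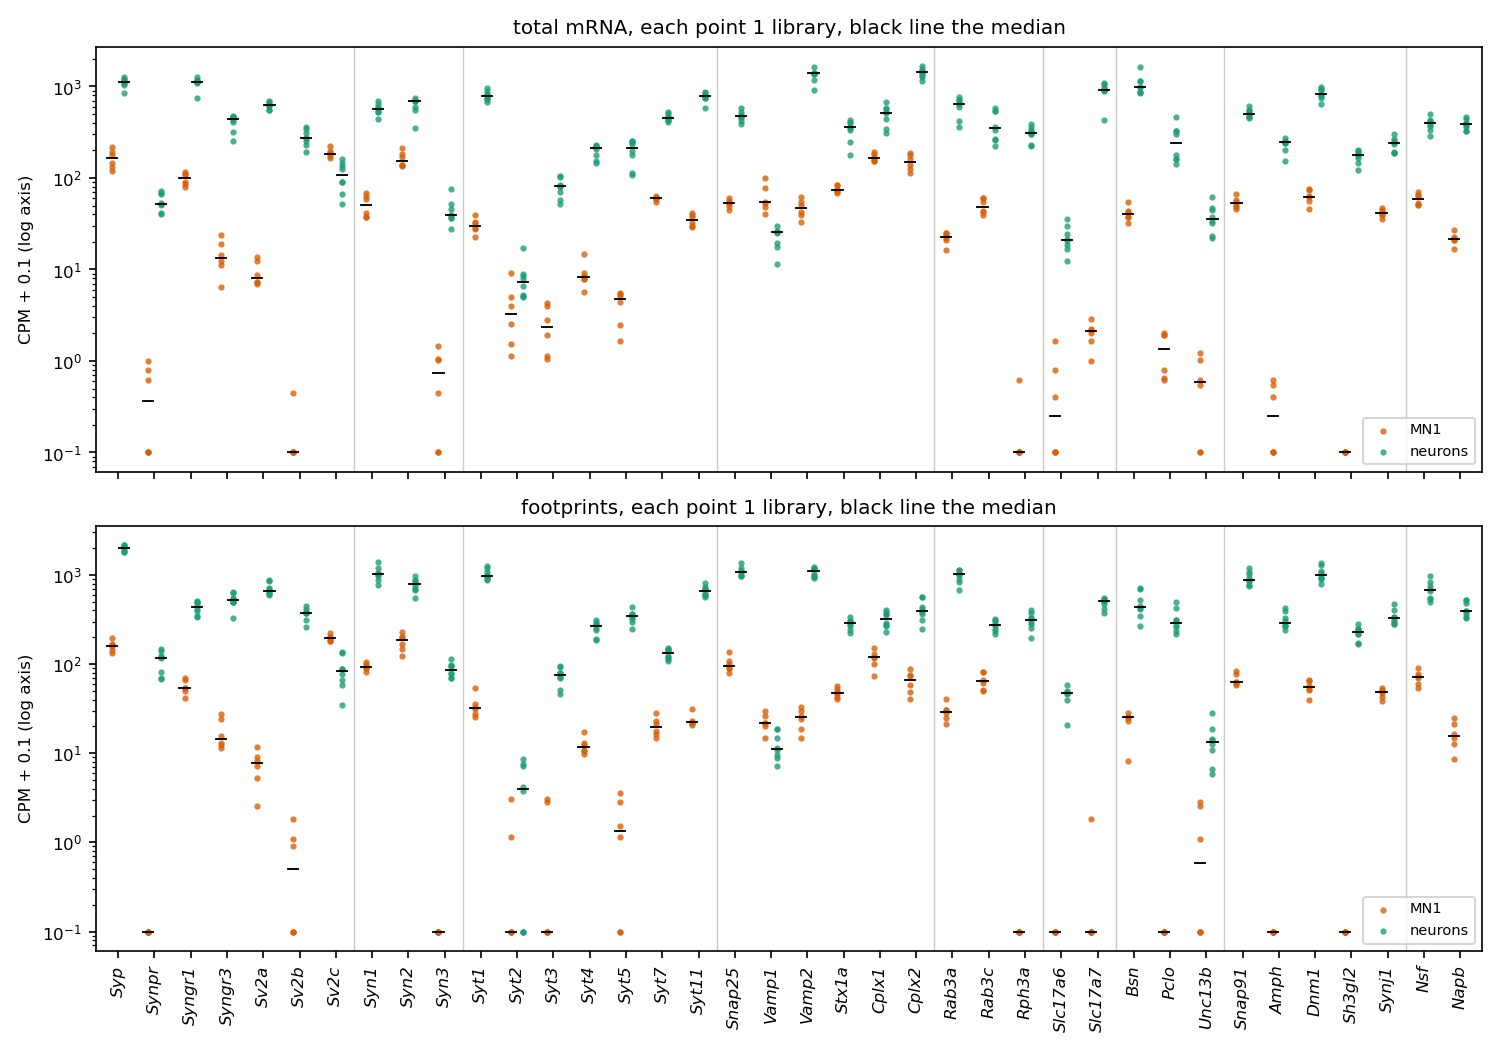
Level of each of the 38 genes in every library, as CPM + 0.1 on a log axis, for total mRNA (upper panel) and footprints (lower panel), with genes in order of their roles. Orange points are the 6 MN1 libraries, green points the 8 neuron libraries and black lines medians; neurons lie wholly above MN1 for 35 genes in each panel, and Vamp1 and Sv2c are higher in MN1.

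Among the vesicle membrane proteins, 6 of 7 were higher in neurons and Sv2c was lower, in both library types. Synaptophysin, one of the most abundant proteins of the vesicle membrane, is encoded by Syp (chrX:7638471-7653256 in GRCm38, plus strand). Syp total mRNA lay between 119 and 217 CPM in MN1 (median 163) and between 845 and 1257 CPM in neurons (median 1121). The ranges are far apart, with a log2 fold change of 2.70 ± 0.14 (SE; adjusted p = 2.5e-10), and in footprints the distance was larger, at 3.64 ± 0.13 (134 to 197 CPM in MN1, 1802 to 2147 CPM in neurons). The Syp count is uncertain, as 16.8% of its exon length overlaps the gene Gm14703. Counting did not use strand and left out reads that fall on several genes, so reads of that stretch are missing. Its relative synaptoporin (Synpr) was at 0 to 0.906 CPM in MN1 and 40.3 to 71.5 CPM in neurons (log2 fold change 7.84 ± 0.39). No footprint of Synpr was counted in MN1, against 67.5 to 148 CPM in neurons, which makes it at least 193-fold higher in neurons when 3 counts over the 6 MN1 libraries are taken as the floor. The synaptogyrins, which share the fold of synaptophysin, were less distant: Syngr1 at 78.7 to 115 CPM in MN1 and 756 to 1267 CPM in neurons (3.39 ± 0.15), and Syngr3 at 6.26 to 23.6 CPM and 252 to 473 CPM (4.74 ± 0.26).

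The SV2 glycoproteins, of which SV2A is the binding site of the drug levetiracetam, went in different directions. Sv2a total mRNA was at 6.78 to 13.6 CPM in MN1 and at 558 to 692 CPM in neurons (log2 fold change 6.01 ± 0.17). For Sv2b, 1 read was counted in all 6 MN1 total mRNA libraries, against 192 to 365 CPM in neurons, a ratio of 3758 with a 95% counting interval of 674 to 148477. Its 3 MN1 footprints gave a ratio of 615 (210 to 2986); intervals and floors cover counting error only. Sv2c (chr13:95954594-96132577, minus strand), which in the brain is known from the basal ganglia, was instead the highest of the 3 in MN1 per kilobase of exon, with a median of 19.8 CPM per kb in total mRNA against 1.70 for Sv2a. Sv2c had 166 to 222 CPM in MN1 total mRNA and 52.5 to 161 CPM in neurons, so every MN1 library was above every neuron library. The log2 fold change was -0.85 ± 0.22 (adjusted p = 0.0023), and with the control groups only it was -0.67 and no longer called (adjusted p = 0.14). In footprints Sv2c had 181 to 222 CPM in MN1 and 34.5 to 136 CPM in neurons (-1.17 ± 0.15).

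The 3 synapsins, which tether vesicles to each other and to actin, were all higher in neurons. Syn1 (chrX:20860511-20921004, minus strand) was at 37.2, 50.3 and 67.6 CPM in MN1 total mRNA (lowest, median and highest) and at 443, 569.7 and 687 CPM in neurons (log2 fold change 3.43 ± 0.16). Syn2 was closer, at 136 to 212 CPM and 349 to 749.5 CPM (1.85 ± 0.18). Syn3, known for its early expression in development, was scarce in MN1, at 0 to 1.36 CPM in total mRNA, and at 27.9 to 75 CPM in neurons. Syn3 had no footprint in MN1 and 69 to 113 CPM in neurons, at least 151-fold higher, with the limit that 14.1% of its exon length overlaps Timp3.

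Of the 7 synaptotagmins, 6 were higher in neurons in both library types and Syt2 was not called. Syt1, the calcium sensor of fast release in the forebrain, was at 22.6 to 39 CPM in MN1 total mRNA (median 30) and at 681 to 953 CPM in neurons (median 785), 4.65 ± 0.16 higher on the log2 scale. Syt2, the related sensor of spinal and brainstem neurons, was low in both, at 1.04 to 9.06 CPM in MN1 and 4.86 to 17.2 CPM in neurons, and the ranges overlapped. Its log2 fold change was 0.94 ± 0.44 (adjusted p = 0.06); with the replicate number as a block it was 1.18 and called (adjusted p = 0.0079), and DESeq2 called it too (1.02, adjusted p = 0.043). Syt2 footprints were too few to test. Syt7, a slow sensor with high calcium affinity, was the least distant of the called synaptotagmins in total mRNA, at 54.1 to 63.7 CPM and 409 to 529 CPM (2.90 ± 0.12).

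Syt3 and Syt5, further calcium-binding members of the family, were at 0.95 to 4.21 and 1.56 to 5.44 CPM in MN1 total mRNA and at 51.6 to 105 and 108 to 256 CPM in neurons. Their log2 fold changes were 4.90 ± 0.30 and 5.53 ± 0.30 in total mRNA and 6.86 ± 0.40 and 8.14 ± 0.29 in footprints. In MN1 footprints Syt3 had 0 to 3 counts a library and Syt5 0 to 2, so the sizes of these 2 footprint differences are uncertain despite their SE. Syt4 and Syt11, which lack part of the calcium-binding residues, were at 5.54 to 14.7 and 28.7 to 41.2 CPM in MN1 total mRNA and 147 to 229 and 579.7 to 872 CPM in neurons, differences of 4.40 ± 0.19 and 4.37 ± 0.15.

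The SNAREs and complexins hold the other member that was higher in MN1. Vamp1 (chr6:125215551-125244543, plus strand), the synaptobrevin most used by motor neurons and other spinal neurons, was at 40.7, 54.3 and 99.2 CPM in MN1 total mRNA (lowest, median and highest) and at 11.3, 25.4 and 30.1 CPM in neurons. Every MN1 library was above every neuron library, and the log2 fold change was -1.56 ± 0.22 (adjusted p = 1.1e-05). In footprints the ranges of Vamp1 overlapped (14.7 to 29.6 CPM in MN1, 7.19 to 18.5 CPM in neurons), with a log2 fold change of -0.99 ± 0.26 (adjusted p = 0.0017). Its paralog Vamp2 (chr11:69088490-69092384, plus strand), the synaptobrevin of most forebrain synapses, went the other way. Vamp2 was at 32.8 to 62.5 CPM in MN1 and 907 to 1626 CPM in neurons (4.77 ± 0.17), and in footprints at 14.7 to 32.6 and 934 to 1232 CPM (5.53 ± 0.16). Per kilobase of exon, the medians of Vamp1 and Vamp2 in total mRNA were 6.21 and 12.2 CPM per kb in MN1 and 2.90 and 365 CPM per kb in neurons. Per kilobase of coding sequence the MN1 order turned, with Vamp1 at 152 and Vamp2 at 132. Total mRNA reads also cover untranslated sequence, and only 4.08% of the exon length of Vamp1 and 9.2% of that of Vamp2 is coding. The coding scale therefore raises Vamp1 more, and the turn does not show that Vamp1 mRNA is the more abundant.

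The plasma membrane partners were expressed in both cell types. Snap25 (chr2:136713453-136782428, plus strand), which supplies a pair of helices to the SNARE bundle, was at 44.5 to 60.3 CPM in MN1 and 385 to 582 CPM in neurons (log2 fold change 3.10 ± 0.13). Stx1a, the syntaxin of the plasma membrane, was at 68.1 to 83.8 and 177 to 425 CPM (2.07 ± 0.17). The complexins clamp the SNARE complex until calcium enters. Cplx1 had the smallest called upward difference in total mRNA, at 152 to 192 CPM in MN1 and 307 to 669 CPM in neurons (1.48 ± 0.16). Cplx2 was at 113 to 188 and 1153 to 1662 CPM (3.16 ± 0.17), with no overlap for either gene.

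Rab3a, the small GTPase of synaptic vesicles, was at 16.1 to 25.2 CPM in MN1 total mRNA and 364 to 767 CPM in neurons (log2 fold change 4.70 ± 0.20). Rab3c, a close relative, was at 39.3 to 60 and 224 to 583 CPM (2.94 ± 0.26). Their effector rabphilin (Rph3a) had 1 read in all MN1 total mRNA libraries and 222 to 387 CPM in neurons, a ratio of 4349 (95% counting interval 780 to 171782). No footprint of Rph3a was found in MN1, at least 540-fold fewer than in neurons. Rph3a is also the member with the RE1-like letters nearest its start, printed above.

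The vesicular glutamate transporters were nearly absent from MN1. Slc17a7 (VGLUT1, the cortical transporter, chr7:45163921-45176138, plus strand) was at 0.906, 2.00 and 2.77 CPM in MN1 total mRNA (lowest, median and highest) and at 432, 925 and 1104 CPM in neurons, 8.72 ± 0.26 higher on the log2 scale. In footprints, 1 read in all 6 MN1 libraries stood against 372 to 558 CPM in neurons (ratio 2397, interval 430 to 94720). Slc17a6 (VGLUT2, the transporter of subcortical and developing neurons) was at 0 to 1.56 CPM in MN1 and 12.3 to 35.1 CPM in neurons (6.58 ± 0.50), and its footprints, none of them in MN1, were at least 71.1-fold higher in neurons. Per kilobase of exon the neuron cultures had a median of 314.8 CPM per kb of Slc17a7 and 4.87 of Slc17a6 in total mRNA.

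The active zone scaffolds Bsn (bassoon) and Pclo (piccolo) are giant proteins of related sequence, and MN1 cells had a median of 2.52 CPM per kb of exon of Bsn and 0.0559 of Pclo in total mRNA. Bsn was at 31.8 to 54 CPM in MN1 total mRNA and 841 to 1646 CPM in neurons (log2 fold change 4.60 ± 0.19). Pclo was at 0.521 to 1.90 CPM and 141 to 463 CPM (7.73 ± 0.45), and had no footprint in MN1 against 219 to 502 CPM in neurons, at least 601-fold higher. Unc13b, a Munc13 that primes docked vesicles, was low, at 0 to 1.11 CPM in MN1 and 21.9 to 61.5 CPM in neurons (6.24 ± 0.46).

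All 5 endocytic genes were higher in neurons, and MN1 cells had reads of some and almost none of others. Dnm1, the dynamin that severs vesicle necks, was at 45.9 to 76.5 CPM in MN1 total mRNA and 649 to 994 CPM in neurons (log2 fold change 3.65 ± 0.15). Synj1, the lipid phosphatase that uncoats vesicles, and Snap91, the clathrin assembly protein AP180, were at 35.5 to 46.9 and 46.1 to 66.1 CPM in MN1, with differences of 2.43 ± 0.15 and 3.18 ± 0.12. Sh3gl2 (endophilin A1) and Amph (amphiphysin), which bend membranes and recruit dynamin, were almost or wholly missing. Sh3gl2 had 0 reads in the 12 MN1 libraries and 123 to 200.1 CPM in neuron total mRNA, at least 831-fold higher in total mRNA and at least 392-fold in footprints. Amph had 3 reads in MN1 total mRNA, a ratio of 1148 (interval 393 to 5568), and none in MN1 footprints, at least 570-fold fewer. For SNARE disassembly, Nsf was at 50.1 to 70.1 CPM in MN1 and 289 to 502 CPM in neurons (2.67 ± 0.13), and Napb, the neuronal beta-SNAP, at 16.6 to 26.6 and 324 to 467 CPM (4.09 ± 0.14).

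The bounds of genes at 0 in every MN1 library all lie above the medians of 4.39 and 4.36, which they therefore cannot move. Without the cultures WT replicate 3 and hTDP-43 replicate 3, whose total mRNA had a large share of reads on Lars2, 35 members were again higher and 2 lower in neurons in both library types, a setting chosen after the data were seen. Rest, the gene of the repressor that binds RE1, was at 15.5, 20.9 and 26.3 CPM in MN1 total mRNA (lowest, median and highest) and at 2.67, 5.15 and 6.93 CPM in neurons, with no overlap and a log2 fold change of -2.07; its part in the members' levels was not tested.

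Levels can be compared between genes only per length, and the order was taken on CPM per kilobase of exon and, since footprints cover mostly coding sequence, also per kilobase of coding sequence. Per kilobase of exon, the highest medians in neuron total mRNA were Vamp2 (365), Slc17a7 (314.8), Rab3a (292), Cplx2 (289) and Cplx1 (237). In neuron footprints they were Rab3a (455), Syp (388), Syn1 (313) and Vamp2 (287). In MN1 the order on this scale was another, with Cplx1 (75.6), Syp (31.3) and Cplx2 (30.5) leading in total mRNA and Cplx1 (54.7), Syn2 (32.8) and Syp (30.8) in footprints. The coding scale gave other orders. It suits footprints, whereas total mRNA reads also cover untranslated sequence. For total mRNA it raises genes whose exons are mostly untranslated, so those orders are not orders of mRNA abundance. Vamp2 (3118), Syp (2140), Snap25 (1751) and Rab3a (1527) then led in neuron footprints, and Vamp2 (3964), Cplx2 (3514) and Syngr1 (1596) in neuron total mRNA. In MN1 they were Cplx1 (296), Syp (169.7), Cplx2 (164) and Snap25 (153) in footprints, with Syn2 (105) after them, and Cplx1 (409), Cplx2 (371) and Syp (173) in total mRNA. Neighbours in the exon orders mostly did not differ beyond their spread, since the ranges of 37 of 37 neighbouring pairs overlapped in neuron total mRNA, 36 in neuron footprints, 33 in MN1 total mRNA and 36 in MN1 footprints.

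For 12 members a counterpart with a similar role in many cell types was set beside them on the per-kilobase scale. The member was above its counterpart in every library in 9 of 12 pairs in neuron total mRNA and in 5 of 12 pairs in MN1 total mRNA, and the counterpart was at or above the member in every library in 1 and 6 pairs. In footprints these counts were 9 and 5, and 1 and 6. Per kilobase of coding sequence the member was above in every library in 11 pairs in neurons and in 4 (total mRNA) or 5 (footprints) in MN1. For total mRNA the coding scale has the limit given above, here and in the pairs below. For the synaptobrevins, median Vamp2 was at 12.2 and Vamp3 at 36.4 CPM per kb in MN1 total mRNA, and at 365 and 5.51 CPM per kb in neurons. Syngr1 and Syngr2 turned in the same way, from 20.7 and 41.0 in MN1 to 234 and 1.84 in neurons on the exon scale. Per kilobase of coding sequence, however, Syngr1 was above Syngr2 in 5 of 6 MN1 total mRNA libraries (medians 141 and 108) and in 2 of 6 MN1 footprint libraries, so that turn depends on the length used. Sh3gl2 was at 0 and Sh3gl1 at 42.2 CPM per kb in MN1 and they were at 27.3 and 31.8 in neurons. Napb and Napa were at 54.7 and 50.0 CPM per kb in neurons. On the coding scale both members were above in all 8 neuron total mRNA libraries, Sh3gl2 at 169 against 59.5 and Napb at 430 against 188. Amph stayed below Bin1 in all 8 neuron total mRNA libraries on both scales (40.2 and 106 CPM per kb of exon), and in footprints it was above Bin1 in 7 of 8 on the coding scale. Syp, Snap25, Stx1a and Synj1 were above their counterparts in every MN1 library on both scales. Rab3a was above Rab3d in every MN1 library per kilobase of exon, but in 2 of 6 MN1 total mRNA libraries per kilobase of coding sequence (medians 34.4 and 36.1).

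**Figure D2:**
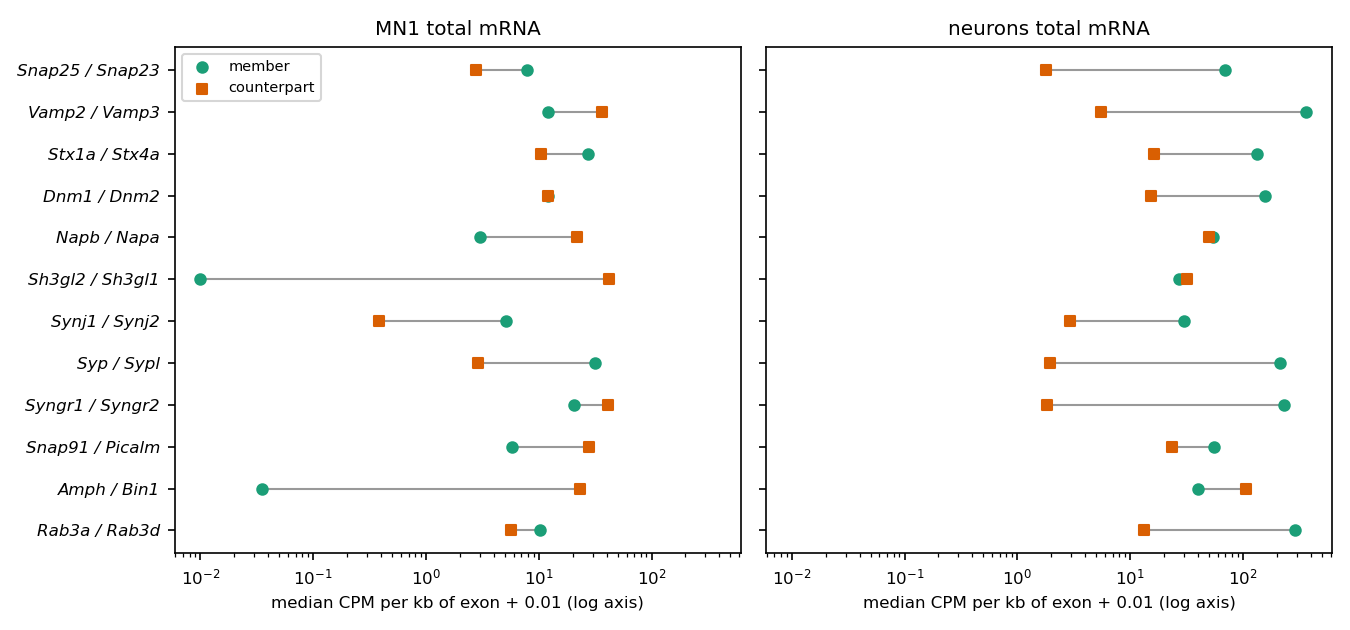
Median level in total mRNA of 12 members (green circles) and their counterparts (orange squares) in MN1 (left) and neurons (right). The log axis gives CPM per kb of exon + 0.01 and has the same range in both panels. Vamp2 and Syngr1 lie left of Vamp3 and Syngr2 in MN1 and far right of them in neurons, while Bin1 exceeds Amph in both cell types.

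Another 57 genes of the vesicle cycle were listed in the same way. In total mRNA 55 of them were tested, 47 were higher in neurons and 4 lower, and in footprints 47 of 52 were higher and 2 lower. The 4 lower in total mRNA were Slc18a3, the vesicular acetylcholine transporter (log2 fold change -3.46), the active zone protein Rims2 (-0.77), Syt6 (-0.63) and the clathrin adaptor Picalm (-0.40).

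Footprints and total mRNA of the same cultures were compared next, which gives a ratio of footprints to mRNA relative to the average gene. Both libraries of a culture entered the main fit as separate samples, without pairing. Total mRNA was poly(A) selected and footprints cover mostly coding sequence, so the ratio depends on more than translation. CPM were scaled within each library type, so ranges of CPM set against each other between library types are descriptions, and the ratios come from the fit. In MN1 25 members were tested, as the other 13 had too few reads, with 5 higher in footprints and 9 lower and a median log2 ratio of 0.01 (-0.05 over all genes), against a background of 57.4% called (27.2% higher, 30.2% lower). In neurons all 38 were tested, with 20 higher and 8 lower and a median of 0.38 (0.00 over all genes), against 54.0% called (26.6% higher, 27.3% lower). With the control groups only, 7 members were called in MN1 (2 higher, 5 lower), where 30.8% of genes were called (15.3% higher, 15.5% lower). In the neuron controls, 2 cultures of each library type, edgeR called none of 11012 genes, and 8 members had an unadjusted p below 0.05. Over all groups DESeq2 called 20 members higher and 10 lower in neurons, with 22.7% and 28.1% of all genes.

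The calls in neurons are given by role, with no test between roles. All 3 synapsins and all 5 endocytic genes were higher in footprints, as were 5 of 7 vesicle membrane proteins. Of 6 SNAREs and complexins, 1 was higher and 3 lower, and of 3 active zone and priming genes 2 were lower and none higher (edgeR; Pclo, at 0.35 ± 0.23, had an adjusted p of 0.22). Snap25 had the highest ratio, with footprints at 967 to 1371 CPM and total mRNA at 385 to 582 CPM in neurons (1.32 ± 0.10, adjusted p = 2.6e-08). The footprint and mRNA ranges of Snap25 do not overlap in MN1 either (78.9 to 137 and 44.5 to 60.3 CPM), where the log2 ratio was 0.96 ± 0.14. Syn1 was alike in MN1 (0.94 ± 0.14) and neurons (0.96 ± 0.11). Other high ratios in neurons were those of Synpr (1.08 ± 0.15), Slc17a6 (1.07 ± 0.22), Syn3 (1.06 ± 0.19), Syp (0.97 ± 0.11), Snap91 (0.96 ± 0.10) and Nsf (0.92 ± 0.12).

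At the other end stood Syt7, Cplx2, Unc13b and Syngr1, while Cplx1 was the least negative of the 8 lower members. Syt7 had 109 to 149.8 CPM in footprints and 409 to 529 CPM in total mRNA of neurons (log2 ratio -1.71 ± 0.11), and its ratio in MN1 was -1.51 ± 0.15. A part of 5.5% of its exon length overlaps another gene. Cplx2 was at -1.65 ± 0.13 in neurons and -1.18 ± 0.20 in MN1, and Cplx1 at -0.49 ± 0.15 and -0.47 ± 0.12. Unc13b (-1.37 ± 0.26), Syngr1 (-1.21 ± 0.10), Bsn (-1.06 ± 0.16), Vamp1 (-0.86 ± 0.25) and Slc17a7 (-0.74 ± 0.14) were the other members lower in neuron footprints. The transporters thus differed from each other, since Slc17a6 was higher and Slc17a7 lower in footprints.

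Only a part of each exon model is coding sequence, and this part was 26.8% in the median of the 25 members tested in MN1 and 30.4% in the 38 tested in neurons, against 38.7 and 38.3% over all genes tested. Across members the log2 ratio and the coding share had a Pearson r of 0.20 in MN1 and -0.05 in neurons, against 0.11 and 0.16 across all genes. Genes are not independent replicates, and these are descriptions. Among the 57 other vesicle cycle genes, 7 of 33 tested were higher and 15 lower in MN1 footprints, and 18 of 56 were higher and 19 lower in neurons. The clathrin heavy chain Cltc (2.06) and Syt10 (1.4) were the highest of them in neurons, and the monoamine transporter Slc18a2 (-2.04) and Rims3 (-1.78) the lowest.

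**Figure D3:**
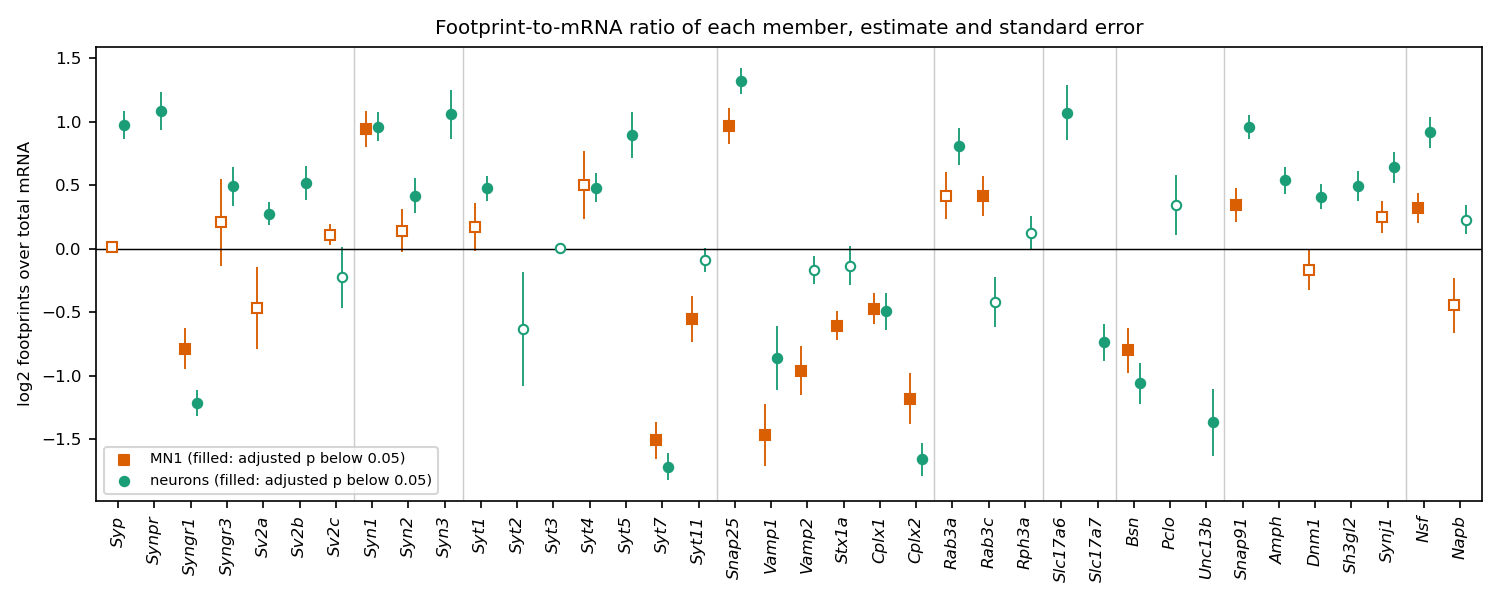
Log2 ratio of footprints to total mRNA of each member in MN1 (orange squares) and neurons (green circles) with its standard error, where one is given, filled where the adjusted p is below 0.05. Snap25 and Syn1 are high and Syt7 and Cplx2 low in both cell types, while Syp is near 0 in MN1 and at 0.97 in neurons.

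Whether the ratio itself differed between neurons and MN1 was tested in 1 model over all 28 libraries. Here 8.07% of 12358 genes were called (5.94% upward, 2.13% downward). Of the 38 members, 8 had a higher ratio in neurons and none a lower one (edgeR; 18 had an unadjusted p below 0.05), and 13 of the 38 had too few MN1 reads for a ratio there, Syt5 among the called. Over the 25 members with enough reads in each cell type the median difference was 0.45, against 0.20 over the 9230 genes of that kind. Syp showed it most clearly, at 1.06 ± 0.17 (adjusted p = 3.8e-04). In MN1 its footprints (134 to 197 CPM) lay within the range of its total mRNA (119 to 217 CPM). In neurons every footprint library (1802 to 2147 CPM) lay above every total mRNA library (845 to 1257 CPM), with CPM scaled within each library type. The other 7 were Vamp2 (0.87 ± 0.21), Sv2a (0.84 ± 0.25), Napb (0.77 ± 0.23), Snap91 (0.71 ± 0.16), Nsf (0.70 ± 0.19), Dnm1 (0.67 ± 0.19) and Syt5 (2.81 ± 0.68). The Syt5 value rests on 0 to 3.49 CPM in MN1 footprints.

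This count depends on the scaling. RLE scaling moved the median of all genes from 0.20 to -0.02 and the called genes from 734 up and 263 down to 187 up and 417 down, and it left 2 members called, Syp and Syt5. DESeq2 called 4 members up (Snap91, Syp, Syt5 and Vamp2) and 1 down, Rab3c at -0.99, and the control groups alone gave no call in any gene. Without the MN1 hTDP-43 culture replicate 1, Syp was the only member called.

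The genotypes were then compared within each cell type and library type. None of the 38 members passed the test in any of the 12 comparisons (edgeR, adjusted p below 0.05), nor with DESeq2. The background is as low, with 0.00965% of genes called in MN1 total mRNA for hTDP-43 A315T against GFP, 0.01% for hTDP-43 against GFP, 0.0115% in MN1 footprints for hTDP-43 A315T against GFP, and 0.0% in each of the other 9. At an unadjusted p below 0.05, edgeR gave 3 members of 27 in the first of these, 1 of 26 in MN1 total mRNA for hTDP-43 A315T against hTDP-43, 1 of 38 in the same comparison of neuron total mRNA, 1, 1 and 2 members in the 3 comparisons of neuron footprints, and 0 in the other 6. The members' log2 fold changes lay between -0.65 and 0.70 in all 12 comparisons, and their medians between -0.10 and 0.13. The comparisons of a cell type share control cultures and are not independent of each other.

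Syn1 in MN1 cells came nearest to a call. The GFP cultures had 37.5 and 37.2 CPM of its total mRNA, the hTDP-43 cultures 41.3 and 67.6 CPM, and those transfected with hTDP-43 A315T 63.7 and 59.3 CPM. All 4 cultures with excess hTDP-43 were above both GFP cultures. The log2 fold change was 0.59 ± 0.18 for hTDP-43 A315T (adjusted p = 0.85 by edgeR) and 0.58 ± 0.30 for hTDP-43 (adjusted p = 1.0). Labels give cultures of the same replicate number the same date, and with this number as a block Syn1 was called in both, at 0.59 ± 0.16 (adjusted p = 0.040) and 0.60 ± 0.16 (adjusted p = 0.031), where 2.73% and 0.472% of genes were called. Footprints of Syn1 were at 81.9 and 96.3 CPM for GFP, 91.3 and 89.8 CPM for hTDP-43, and 99.9 and 104.7 CPM for hTDP-43 A315T, where hTDP-43 lay between the GFP cultures and hTDP-43 A315T above both. In neuron total mRNA Syn1 was at 649 and 443 CPM in WT and 560.0, 531 and 529.6 CPM with hTDP-43 A315T, and the effect of hTDP-43 A315T against the control differed between the cell types by -0.73 ± 0.30 (adjusted p = 1.0 by edgeR).

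In neurons the member with the smallest p was Synpr in footprints of hTDP-43 A315T against WT. It was at 148 and 117 CPM in WT and at 122, 69.7 and 67.5 CPM with hTDP-43 A315T, and the groups overlapped. The overlap came from the culture at 122 CPM, which had no WT culture of its date. The log2 fold change was -0.65 ± 0.21 (adjusted p = 1.0 by edgeR). With the replicate number as a block it was -0.89 ± 0.20 and not called either (adjusted p = 0.28 by edgeR). With hTDP-43, Synpr was at 141, 119.7 and 80.5 CPM. Slc17a7 total mRNA was at 919 and 432 CPM in WT and at 931, 1063 and 984 CPM with hTDP-43 A315T, so that WT replicate 2 lay close to the hTDP-43 A315T cultures and WT replicate 3 far below them (0.52 ± 0.31). The total mRNA of Unc13b was at 32.1, 23.3 and 33.7 CPM with hTDP-43 A315T and at 45.0, 37.0 and 47.3 CPM with hTDP-43, without overlap (-0.55 ± 0.23, adjusted p = 1.0 by edgeR), while WT spanned both at 21.9 and 61.5 CPM. The other members with the smallest p were Syp (0.40 ± 0.16, hTDP-43 A315T against hTDP-43) in MN1 total mRNA, Syt1 (0.54 ± 0.31 and 0.57 ± 0.37, hTDP-43 A315T against GFP and hTDP-43) and Nsf (-0.36 ± 0.24, hTDP-43 against GFP) in MN1 footprints, Sv2b (0.45 ± 0.29) and Pclo (0.46 ± 0.19) in neuron total mRNA and footprints of hTDP-43 against WT, and Snap25 (-0.32 ± 0.13) in neuron footprints when hTDP-43 A315T was set against hTDP-43.

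The WT total mRNA libraries of neurons weigh on these values. Without WT replicate 2, when replicate 3 with its high Lars2 share is the only WT library and is assumed to vary like the others, 8 members were called for hTDP-43 A315T against WT: Slc17a7, Stx1a, Syn2, Syngr3 and Syt5 upward and Pclo, Syn3 and Unc13b downward, among 1573 of 12558 genes. The part of that library's read composition in these values was not tested.

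The footprint-to-mRNA ratio of the members did not differ by genotype past the threshold in any of 6 comparisons (edgeR, 0 of 25 to 38 members called, none with an unadjusted p below 0.05, none by DESeq2; 0.0% of genes called). The values nearest to it were those of Sv2a in MN1, with a log2 difference of -1.61 ± 0.81 for hTDP-43 A315T against GFP (adjusted p = 1.0 by edgeR). It rests on 3 and 3 footprints with hTDP-43 A315T and 9 and 11 with GFP. The effect of hTDP-43 A315T against the control on Sv2a footprints differed between neurons and MN1 by 1.66 ± 0.52 (adjusted p = 1.0 by edgeR), on the same few reads. In the 2 tests of this kind edgeR and DESeq2 called 0 members, and at an unadjusted p below 0.05 edgeR gave 1 of 38 in total mRNA and 2 of 37 in footprints. Unc13b had the largest differences in neurons, with 1.27 ± 0.73 for hTDP-43 A315T against WT, from 7 to 37 footprints a library in these groups.

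**Figure D4:**
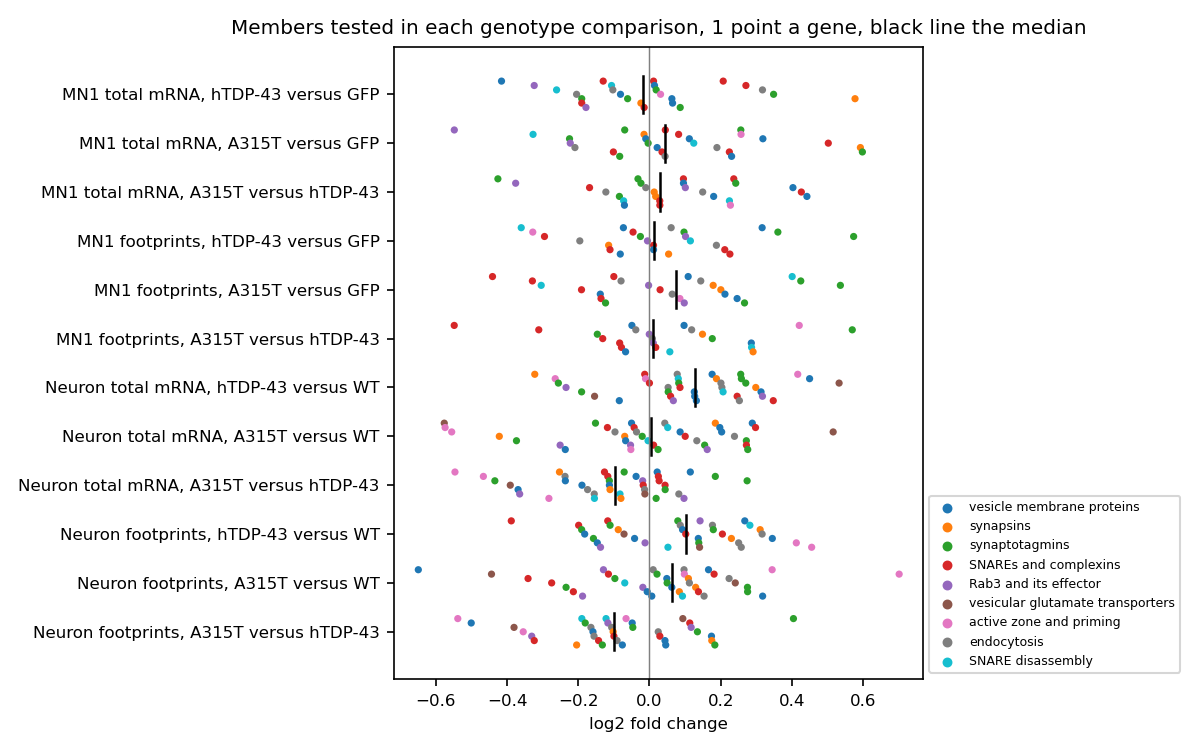
Log2 fold change of every member tested in each of 12 genotype comparisons, 1 point a gene coloured by role, with the median as a black line. All points lie between -0.65 and 0.70, the medians lie between -0.10 and 0.13, and no point passed the test without the replicate block.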

How the data were processed

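Ribosome footprints and total mRNA of 14 cultures were sequenced. The authors clipped adapters with cutadapt 1.8.1, removed reads that Bowtie2 placed on non-coding RNAs, aligned the rest to GRCm38 with TopHat2 and ran featureCounts 1.4.4 on the exons of Ensembl release 80 genes, without strand and without reads that fall on several genes; the deposited values are these raw counts, not normalized. Symbols came from the GENCODE M21 annotation, and promoter and genome letters from RefSeq GRCm38.p6. Counts were fitted with edgeR 4.0.16 in R 4.3.3 (TMM, filterByExpr with a minimum count of 10 and total of 15, quasi-likelihood test, Benjamini-Hochberg over all genes tested, threshold 0.05), after a check on simulated data. Cell types were compared as the mean of the 3 groups of each, genotypes in pairs of groups, and ratios as interactions of library type. Each SE is the size of the log2 fold change over the root of its F value and is left out where p exceeds 0.9. Replicates are separate cultures by their labels, and p-values within a library type measure the spread between these. In the main ratio fits, the footprint and total mRNA libraries of a culture entered unpaired. Those p-values therefore measure the spread between libraries, and only the block paired the libraries of a culture.

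Same-numbered cultures of a cell type are labelled with the same day and month (the year differs in the title of a footprint library with GFP), so the numbers pair samples by day. WT neurons are of replicates 2 and 3 only, so neuron comparisons against WT are not balanced by day. The deviations of same-numbered libraries from their group means had a mean correlation of 0.44 and 0.34 in MN1 (total mRNA, footprints) and 0.17 and 0.12 in neurons. Alternatives were DESeq2 1.42.0, RLE scaling, no filter, the replicate block, control groups only, each culture left out, and coding length in place of exon length. The 38 members, the counterparts and the other vesicle cycle genes were chosen with earlier results of these data known. All members could be named for cell and library types. For genotypes, those past the threshold in either fit and the one with the smallest p were named, and at most 6 other vesicle cycle genes a comparison by size.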

Additional observations from a re-analysis of the deposited data

Results flagged for a closer look

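The members' values were searched for outlying libraries, with 6 MN1 or 8 neuron libraries at a time. Of the sets tested, 9 of 129 had a library far from the others, and chance gives about 1 in 20. In neuron total mRNA, WT replicate 3 was the low library for Syngr1 (755.7 CPM, median 1125), Syt11 (579.7 CPM, median 778) and Slc17a7 (432 CPM, median 925). The neuron hTDP-43 replicate 3 was the high library for Syt2 (17.2 CPM, median 7.15) and Bsn (1646 CPM, median 988) in total mRNA. This library is the shallowest of its kind, with 600385 assigned reads. In MN1 footprints, hTDP-43 A315T replicate 2 was high for Syt1 (54.1 CPM, median 32.1) and Syt11 (31.4 CPM, median 22.0), and hTDP-43 replicate 2 was low for Bsn (8.16 CPM, median 25.1). In neuron footprints, hTDP-43 replicate 2 was low for Syngr3 (327 CPM, median 518).

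The footprint-to-mRNA ratio differed between neurons and MN1, in a test of the difference itself, for Syp (1.06), Vamp2 (0.87), Sv2a (0.84), Napb (0.77), Snap91 (0.71), Nsf (0.70), Dnm1 (0.67) and Syt5 (2.81), all higher in neurons on the log2 scale. The protocols of the cell types differ in cycloheximide, which cannot be told apart from cell type here.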

How the results depend on the processing

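Of the counts of members called and of pairs above their counterpart, 256 alternatives stayed within 1.5 times the first value and 15 did not, and no called value turned its sign. The 256 include counts of 0 that stayed at 0, as in the genotype comparisons, and these show nothing of stability. With the control groups only, 3 counts moved and 2 stayed. For footprints against total mRNA, the control groups alone gave 7 of 14 calls in MN1 and 0 of 28 in neurons. For the ratio between the cell types, 8 members were called, and 2 with RLE scaling, 5 with DESeq2, 5 without the filter on low counts, 0 with the control groups only and 1 to 11 when each culture was left out. Leaving out a culture gave 37 to 38 members in the cell type comparison of total mRNA, 36 to 37 in footprints, 10 to 14 and 25 to 29 for footprints against total mRNA in MN1 and neurons, and 0 to 8 for hTDP-43 A315T against WT in neuron total mRNA, with 8 when WT replicate 2 was absent. The replicate block, which pairs cultures of the same day, gave 1 member, Syn1, in MN1 total mRNA for hTDP-43 A315T and for hTDP-43 against GFP. With that block Syt2 was called in total mRNA between the cell types. For the ratio between the cell types, the block was instead the culture, pairing its footprint and total mRNA libraries. Blocked in this way, 9 members were called for that ratio, with Stx1a added (0.59). The cause of these changes was not tested, beyond the fewer samples of the smaller fits. Among values of single genes, 3017 kept their direction and side of the threshold, 142 lost a call, 37 gained one and 46 changed the sign of a value that was called in neither fit.

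Footprint libraries of neurons reached down to 166064 reads, where 3 counts are 18.1 CPM, and Syt2, Unc13b and Vamp1 had fewer than 3 counts in the shallowest library, which limits the comparison of genotypes for them. Exon counts include untranslated sequence. Reads shared with overlapping genes were not counted, which touches Syp, Syt4 (14.7% of its exon length), Syn3 and Syt7.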

Other observations

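Over the 14 total mRNA libraries, the genes whose log2 levels followed the mean of the 38 members most closely were Fam49a, Nrxn2, Fam81a, Gabbr1 and Agap2, each with a Pearson r of 0.999. The libraries fall into the 2 cell types, so this measures how sharply a gene separates neurons from MN1. Nrxn2, a presynaptic adhesion protein, was at 67.2 CPM in MN1 and 2062 CPM in neurons, and Gabbr1, a subunit of the GABA-B receptor, at 25.5 and 981 CPM.

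Promoters of 300 bases were found in RefSeq (GRCm38.p6) for 31 of the 38 members. The cyclic AMP response element, TGACGTCA, lay in 1.79% of 32851 promoters and in those of 2 members, Syn1 (chrX:20921059-20921088, minus strand) and Sh3gl2 (chr4:85205408-85205437, plus strand). The left and right parts of the RE1 motif were searched for alone, with CAGCACC in 7.14% of promoters and in those of Syn1, Sv2c and Rph3a, and GGACAGC in 6.56% and in that of Rph3a. These shares are per promoter while members are counted as genes, which may have several promoters, so the values are not directly comparable. The windows of these 2 members with the response element are printed with it in capitals.
Syn1: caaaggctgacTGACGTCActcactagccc
Sh3gl2: atcacccgcccTGACGTCAgggtgtctctc
A match describes letters in this window and says nothing of a factor. Among the 57 other vesicle cycle genes, 8 had a higher footprint-to-mRNA ratio in neurons than in MN1, with Scamp5 (1.13), Rab3gap1 (0.88) and Unc13a (0.80) among them, and Syt9 had a lower one (-1.46), where 5.94% and 2.13% of all genes were called. This test depends on the scaling, and the calls among the 38 members fell from 8 to 2 with RLE. Over the 12 genotype comparisons their log2 fold changes lay between -1.25 and 0.72.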
